A study of Mus musculus with 9 samples.

Results

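The genes of the interleukin-6, interleukin-12 and interleukin-10 families that bear on macrophages, with their receptor chains, were followed in a macrophage line, RAW264.7, under DMSO, LPS or LPS + Ska. Il15, which lies outside these families, was followed with them. The genes followed were chosen by gene symbol from the deposited expression table and are 10 of its 55401 genes. Of these, 6 encode cytokines or cytokine subunits (Il6, Il10, Il12b, Il23a, Il27 and Il15) and 4 encode receptor chains (Il10ra, Il10rb, Il6ra and Il6st). The line came from tumours induced in a male mouse by Abelson murine leukemia virus, and all samples were wild type and grown in DMEM with serum and antibiotics. The control group received DMSO, the LPS group DMSO and LPS, and the LPS + Ska group LPS and skatole, each for 24 h by the sample labels. LPS is a bacterial wall component that drives macrophages to the inflammatory M1 state, and skatole is an indole compound. There were 3 samples a group, numbered 5, 6 and 7, and nothing in the labels says that they were separate cultures. The p-values therefore measure at most the spread between deposited columns, which may be technical. In the LPS and LPS + Ska groups these columns were not independent, as given below. None of these groups received skatole without LPS, so a change in LPS + Ska is a change in LPS-treated cells of 1 line.

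Cytokines of the IL-6 family signal through the shared chain gp130, encoded by Il6st, and IL-6 itself first binds the receptor chain encoded by Il6ra. IL-10 binds Il10ra, which pairs with the shared chain Il10rb, and in macrophages this receptor acts through Stat3 to restrain cytokine production. IL-12 and IL-23 share the p40 subunit encoded by Il12b, which pairs with p35 (Il12a) or with p19 (Il23a), and IL-27 pairs p28 (Il27) with Ebi3. IL-15 supports NK and memory T cells and is presented by macrophages on Il15ra.

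Values are TPM, the share of a gene's transcripts in a column per transcript length and scaled to a fixed total, so levels of different genes can be set side by side. How deeply each sample was sequenced cannot be read from such values and is unknown. Columns summed to between 999895 and 1000145 TPM and had 12498 to 13012 genes at 1 TPM or more. With LPS and likewise with LPS + Ska, replicate 5 was the mean of replicates 6 and 7 to within 1e-05 TPM in 17950 of 17950 and 17658 of 17658 genes with both above 0, against 10 of 16674 with DMSO, so these groups hold at most 2 independent values a gene. The 2 values recovered from them (replicate 5 plus and minus 0.5 times its gap to replicate 6) lay no further apart than replicates 6 and 7. Ranges and SDs of these columns are therefore not those of separate measurements. The limma fits entered all 3 tied columns of each treated group. Unless given for recovered values, their SEs and adjusted p-values count more samples than there are independent values. Of 12 macrophage markers, 11 passed the filter on low values and Mertk was listed at 0, whereas all 4 epithelial markers and 6 of 8 T and NK cell markers were at 0 in every column and the T and NK list summed to at most 4.78 TPM, nearly all of it Lck. The B cell, dendritic cell, neutrophil and fibroblast lists summed to at most 0.672, 1.79, 3.07 and 0.462 TPM in a column. Of 20 genes that every cell uses, none was at 0, and the lowest value was 11.1 TPM. In bulk RNA, fewer cells of a type and less RNA per cell cannot be told apart.

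A change was called where limma on log2(TPM + 1), fitted to the 12819 genes with a mean of at least 1 TPM over the 9 columns, gave an adjusted p (Benjamini-Hochberg, over all these genes) under 0.05 and the fold change was over 1.5 or under 0.67. Of the 10 genes, 8 passed this filter. Il12b and Il23a did not, and Il6 passed only through its level with LPS. Il10 lay just inside with a mean of 1.01 TPM, and passed only through its level with LPS + Ska (0.835 TPM over the other groups). Fold changes on this scale understate the change of low genes.

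Promoter sequences are shown for members that moved in opposite directions with LPS. RefSeq windows (GRCm38.p6) from 250 bases before to 50 bases after the start were found for 4 of the 10 genes. Those of Il6, the cytokine with the largest change, and of Il6ra and Il6st, the receptor chains for its signal, are given here 5′ to 3′ on the strand of the gene, with matches to 5 motifs in capitals. The motifs, searched on both strands, were GGNNNTTCC for NF-kB, TTNNGNAA for C/EBP, TGANTCA for AP-1, TTCNNNGAA for STAT and GAAANNGAA for IRF. The windows lie at chr5:30012864-30013163 (plus strand) for Il6, chr3:89913147-89913446 (minus strand) for Il6ra and chr13:112463820-112464119 (plus strand) for Il6st.
Il6: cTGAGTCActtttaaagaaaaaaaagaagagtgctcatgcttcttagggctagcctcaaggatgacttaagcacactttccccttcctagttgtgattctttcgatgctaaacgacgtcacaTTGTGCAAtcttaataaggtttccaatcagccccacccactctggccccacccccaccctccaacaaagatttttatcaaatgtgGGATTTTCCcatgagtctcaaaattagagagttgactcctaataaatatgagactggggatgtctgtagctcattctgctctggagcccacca
Il6ra: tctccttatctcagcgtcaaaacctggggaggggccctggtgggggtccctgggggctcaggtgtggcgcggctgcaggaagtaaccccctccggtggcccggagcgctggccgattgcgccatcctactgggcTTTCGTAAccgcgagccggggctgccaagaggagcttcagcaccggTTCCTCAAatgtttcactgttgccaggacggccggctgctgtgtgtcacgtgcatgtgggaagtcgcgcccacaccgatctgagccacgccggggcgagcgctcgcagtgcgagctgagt
Il6st: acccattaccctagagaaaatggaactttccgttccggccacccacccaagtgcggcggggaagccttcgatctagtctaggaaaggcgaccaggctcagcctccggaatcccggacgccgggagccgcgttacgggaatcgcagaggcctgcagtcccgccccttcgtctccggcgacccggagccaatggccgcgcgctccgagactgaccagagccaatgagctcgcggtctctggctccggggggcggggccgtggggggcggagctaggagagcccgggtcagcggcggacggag

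The Il6 window held 1 NF-kB match ending 35 bases before the start, 1 C/EBP match ending 121 bases before it and 1 AP-1 match at its far end, and no STAT or IRF match. The Il6ra window held C/EBP matches at 2 places, one of which reads as a match on both strands, and the Il6st window held none of the 5 motifs. The Il12b window also held none. Of 32851 promoter windows in the table, 18.5% held the NF-kB motif, 40.7% the C/EBP motif, 7.81% the AP-1 motif, 8.30% the STAT motif and 8.56% the IRF motif. The window of Il6 was 44% G and C, against 66% for Il6ra and 68.3% for Il6st. These matches are descriptions of the letters and not measured binding sites.

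Levels of receptor chains and cytokines were far apart in untreated cells. With DMSO, Il10rb was highest at 72.8 TPM, and Il6st, Il6ra and Il10ra followed at means of 29.6, 26.1 and 21.5 TPM. The Il6st columns overlapped those of Il6ra, and those of Il6ra overlapped those of Il10ra, so the order of these chains was not resolved beyond their spread. The cytokines were all below 5 TPM in every DMSO column. With LPS, Il6 was the highest of the 6 cytokine members at 4.35 TPM, above Il15 with no overlap. With LPS + Ska it stood at 0.259 TPM, below Il23a, and the columns of Il10, Il27 and Il15 overlapped in a row, at means from 1.35 to 1.17 TPM. The recovered values of Il10 (1.42 and 1.27 TPM) and Il27 (1.22 and 1.24 TPM) did not overlap in that group. Il10rb was the highest of the 10 genes in all 3 groups, and with LPS and with LPS + Ska the order Il10rb, Il6ra, Il6st, Il10ra had no overlap between neighbours.

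**Figure D1:**
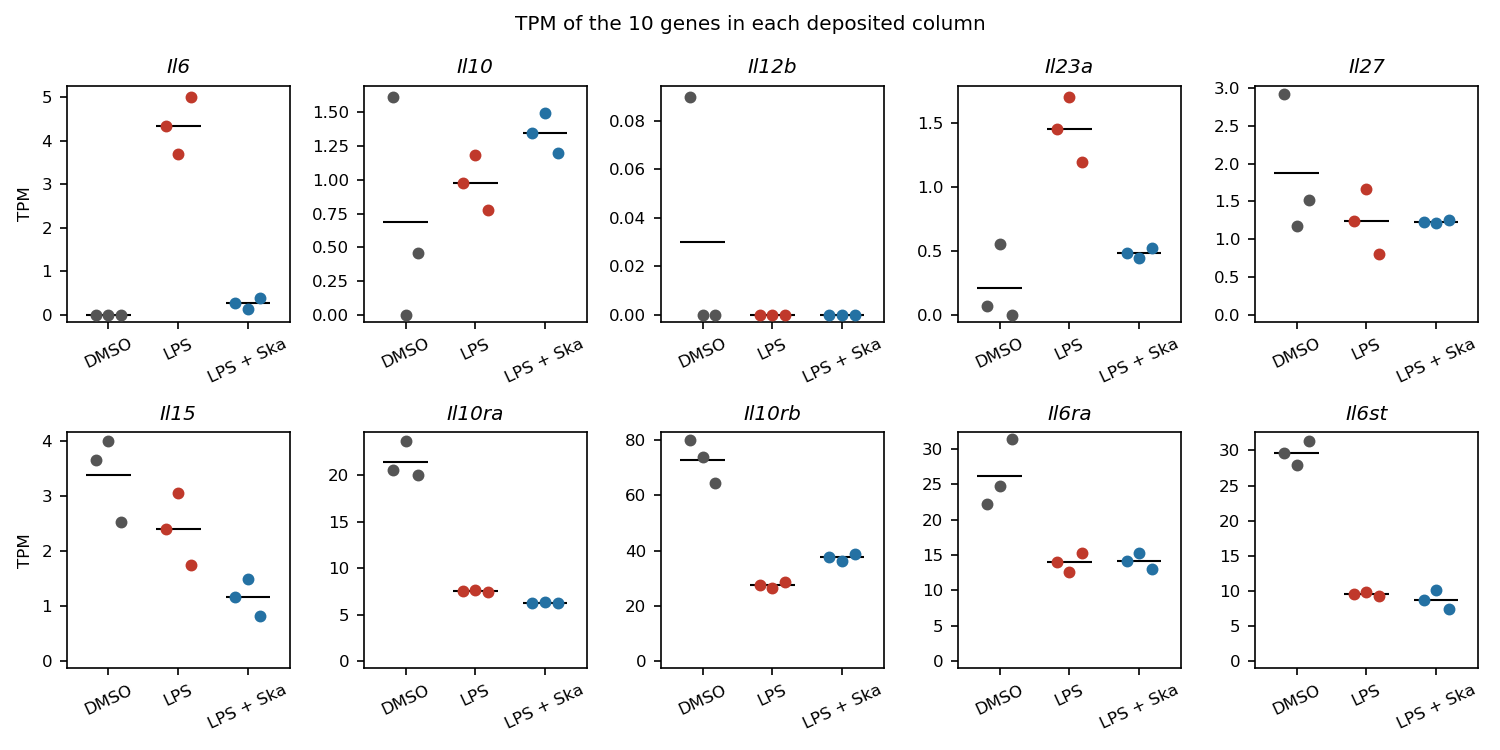
TPM of each of the 10 genes (vertical axis, own scale a panel) in the 3 columns of each group, with a line at the group mean; replicates 5, 6 and 7 run from left to right. Il6 lies between 3.69 and 5.01 TPM with LPS and at most at 0.379 TPM with LPS + Ska, and the receptor chains lie highest with DMSO.

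Against DMSO, LPS moved 5 of the 8 tested genes. Il6 was called higher, 1 of 8 against 12.7% of all genes tested, and all 4 receptor chains were called lower, 4 of 8 against 20.0% of all genes tested. Il6 was among the 8 only through its level with LPS, so its calls here and below draw on the level that admitted it. Of the 8, with skatole added to LPS, Il6 and Il15 were called lower, 2 of 8 against 6.14% of all genes tested. None was called higher by limma, against 3.35%, with 1 (Il10rb) at an unadjusted p under 0.05. For LPS + Ska compared with DMSO, 5 of 8 were called lower against 25.3%, and none higher by limma against 11.4%, with 0 at an unadjusted p under 0.05. This comparison shares its columns with both others. With median-ratio scaling in place of TPM as deposited, the split of all genes called higher and lower changed from 1630 and 2559 to 2001 and 2101 in LPS against DMSO, from 429 and 787 to 595 and 540 in LPS + Ska against LPS, and from 1457 and 3243 to 2212 and 2246 in LPS + Ska against DMSO. The median log2 difference of all genes was -0.07, -0.10 and -0.18 in these comparisons as deposited. Of the calls on the 10 genes, that of Il15 against LPS was lost with median-ratio scaling.

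**Figure D2:**
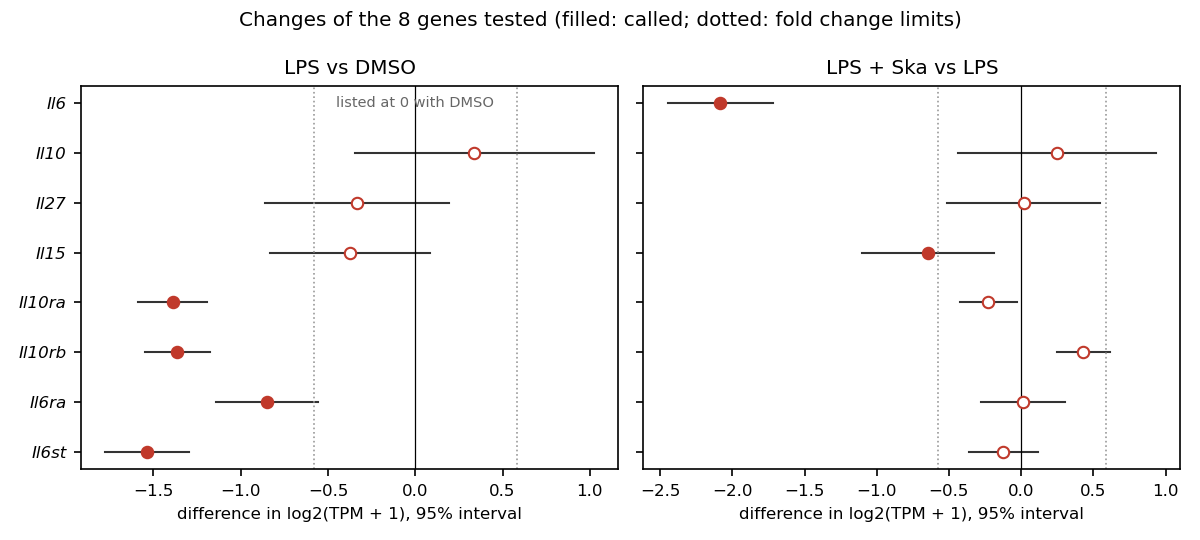
Difference in log2(TPM + 1) with its 95% interval (horizontal axis) for the 8 genes tested, LPS against DMSO on the left and LPS + Ska against LPS on the right; filled points were called, and dotted lines mark the fold change limits. The 4 receptor chains lie to the left of the lower limit on the left, and Il6 (-2.08) and Il15 (-0.65) on the right; Il6 has no point on the left because it was listed at 0 with DMSO.

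Il6, on chromosome 5 at 30013114-30019981 (plus strand, GRCm38), encodes the cytokine that drives acute-phase and fever responses. It was listed at 0 in all 3 DMSO columns. With LPS it was at 4.35, 3.69 and 5.01 TPM, and with LPS + Ska at 0.259, 0.139 and 0.379 TPM in replicates 5, 6 and 7. No column of one group overlapped a column of another. The rise with LPS was called at an adjusted p of 2.6e-06, and no fold is given against a group at 0. The LPS + Ska mean was 5.96% of the LPS mean, a 16.8-fold difference between the means in TPM. In the fit this was a log2 difference of -2.08 ± 0.16 (SE, adjusted p = 5.9e-05), which was -3.68 with a pseudocount of 0.1. With recovered values in place of the tied columns, the limma adjusted p was 0.0014. The difference was the 18th lowest of the 12819 differences between LPS + Ska and LPS. Il6 was in this ranking only through its level with LPS. Il6 with LPS + Ska did not differ from DMSO at the threshold (adjusted p = 0.10), although it was above 0 in all 3 tied columns. With a pseudocount of 0.1 it was called higher than DMSO (adjusted p = 0.0083).

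Il23a, on chromosome 10 at 128296139-128298752 (minus strand), encodes the p19 subunit of IL-23, which sustains Th17 cells. It had 0.0662, 0.550 and 0 TPM with DMSO, 1.45, 1.71 and 1.20 with LPS, and 0.486, 0.447 and 0.524 with LPS + Ska. The LPS columns lay above all others and the LPS + Ska columns lay inside the DMSO range. Because its mean was below 1 TPM it was not among the genes tested. In a fit with no filter on 25181 genes, the log2 difference was 1.05 ± 0.17 (SE) for LPS against DMSO (adjusted p = 0.0024) and -0.72 ± 0.17 for LPS + Ska against LPS (adjusted p = 0.025), both past the limits, and 0.33 for LPS + Ska against DMSO (adjusted p = 0.18). That fit counted the tied columns as 3 samples a group, and Il23a was not in the fit on recovered values. The LPS + Ska mean was 33.5% of the LPS mean.

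Il12b, on chromosome 11 at 44400063-44414033 (plus strand), encodes the p40 subunit that Il23a needs for secretion as IL-23. It was at 0.0898 TPM in DMSO replicate 5 and at 0 in the other 8 columns. Il12a, which encodes the other partner of p40, was at 0 in every column. Transcripts of the p40 partner were therefore not seen in the LPS columns in which Il23a was highest, at a depth that is unknown.

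Il15, on chromosome 8 at 82331632-82403222 (minus strand), had 3.66, 4.0 and 2.53 TPM with DMSO, 2.40, 3.06 and 1.75 with LPS, and 1.17, 1.5 and 0.826 with LPS + Ska. The DMSO and LPS columns overlapped, and the LPS + Ska columns lay below both. LPS alone gave a log2 difference of -0.37 ± 0.20 (SE, adjusted p = 0.14). LPS + Ska was lower than LPS by -0.65 ± 0.20 (SE, adjusted p = 0.042) at 48.5% of the LPS mean, and lower than DMSO (adjusted p = 0.0018) at 34.3% of the DMSO mean. The call against LPS was weak. Over the alternatives its adjusted p ran from 0.012 to 0.14, and it was lost without LPS replicate 5 (0.12), LPS replicate 6 (0.14), LPS + Ska replicate 5 (0.11) or LPS + Ska replicate 7 (0.11), with the 2 recovered values a group (0.085), with median-ratio scaling (0.060) and with no filter (0.077).

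Il10, on chromosome 1 at 131019845-131024974 (plus strand), encodes the cytokine that shuts down macrophage activation. It had 1.62, 0 and 0.457 TPM with DMSO, 0.980, 1.19 and 0.774 with LPS, and 1.35, 1.5 and 1.20 with LPS + Ska. The LPS + Ska columns lay above the LPS columns by a narrow margin, and the DMSO columns spanned both groups. The log2 difference was 0.25 ± 0.30 (SE, adjusted p = 0.57) between LPS + Ska and LPS, and 0.34 (adjusted p = 0.36) between LPS and DMSO. Without DMSO replicate 5, the highest of the 9 columns for this gene, Il10 was called higher with LPS (0.71, adjusted p = 0.017) and with LPS + Ska (0.96, adjusted p = 0.0039) than with DMSO. Without DMSO replicate 6, where it was listed at 0, the differences from DMSO were 0.02 (adjusted p = 0.96) with LPS and 0.26 (adjusted p = 0.38) with LPS + Ska, so the comparison with untreated cells moved with single DMSO columns in both directions.

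Il27, on chromosome 7 at 126589010-126594941 (minus strand), encodes the p28 subunit of IL-27. It had 2.92, 1.18 and 1.52 TPM with DMSO, 1.23, 1.66 and 0.808 with LPS, and 1.23, 1.21 and 1.26 with LPS + Ska. All groups overlapped, and no comparison was called, with log2 differences of -0.33 (adjusted p = 0.24) for LPS against DMSO and 0.02 (adjusted p = 0.97, 95% interval -0.51 to 0.54) for LPS + Ska against LPS. Il27 shares 103 bases with Apobr on the opposite strand, a gene at a mean of 31.2 TPM, and without strand in the counting their reads there cannot be told apart. DMSO replicate 5 held the highest value of its group for Il10, Il12b, Il27 and Il10rb.

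The receptor chains fell together with LPS. Il10ra (chromosome 9, 45253837-45269149, minus strand), the ligand-binding chain for IL-10, had 20.6, 23.7 and 20.1 TPM with DMSO, 7.55, 7.62 and 7.49 with LPS, and 6.31, 6.36 and 6.26 with LPS + Ska. LPS left 35.2% of the DMSO mean (log2 difference -1.39 ± 0.09 SE, adjusted p = 1.7e-06). LPS + Ska lay below LPS in every column, at 83.6% of its mean, but the difference of -0.23 did not pass the adjusted p (0.081) or the fold limit.

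Il10rb (chromosome 16, 91406164-91425834, plus strand), the chain that IL-10 shares with IL-22 and other relatives, had 80.1, 73.7 and 64.5 TPM with DMSO, 27.6, 26.4 and 28.7 with LPS, and 37.5, 36.2 and 38.9 with LPS + Ska. LPS left 37.9% of the DMSO mean (-1.36, adjusted p = 1.4e-06). The LPS + Ska columns lay above all LPS columns and below all DMSO columns, at 136% of the LPS mean. The log2 difference of 0.43 ± 0.08 (SE, adjusted p = 0.0052) passed the adjusted p and not the fold limit, and with median-ratio scaling it was 0.53 and still inside the limit. With recovered values the limma adjusted p was 0.027. LPS + Ska was called lower than DMSO (adjusted p = 1.1e-05) at 51.6% of its mean.

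Il6ra (chromosome 3, 89864059-89913196, minus strand), which binds IL-6 on the cell or as a shed receptor, had 22.2, 24.8 and 31.3 TPM with DMSO, 13.9, 12.6 and 15.3 with LPS, and 14.1, 15.2 and 12.9 with LPS + Ska. LPS left 53.4% of the DMSO mean (-0.85 ± 0.13 SE, adjusted p = 0.00038), the smallest fall of the 4 chains. LPS and LPS + Ska overlapped, and their log2 difference of 0.02 (adjusted p = 0.94) had a 95% interval from -0.28 to 0.31.

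Il6st (chromosome 13, 112464070-112510086, plus strand), the gp130 chain, had 29.7, 27.9 and 31.4 TPM with DMSO, 9.55, 9.81 and 9.29 with LPS, and 8.76, 10.1 and 7.42 with LPS + Ska. LPS left 32.2% of the DMSO mean (-1.54 ± 0.11 SE, adjusted p = 3.1e-06), the largest fall of the 4. The LPS and LPS + Ska columns overlapped, with a log2 difference of -0.12 (adjusted p = 0.42, 95% interval -0.36 to 0.12). The recovered values met almost without overlap, at 9.684 and 9.424 TPM with LPS and 9.422 and 8.089 TPM with LPS + Ska. Against DMSO, LPS + Ska was called lower for Il10ra, Il6ra and Il6st as well, at 29.4%, 54.0% and 29.5% of the DMSO mean. In the same comparison of LPS with DMSO, 5 of 11 tested macrophage markers were also called lower, against 20.0% of all genes tested. The marker list summed to 12872 to 13851 TPM with DMSO, 7605 to 7994 with LPS and 13920 to 14296 with LPS + Ska, mostly from Lyz2. The part of these changes in the receptor result was not tested.

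Ratios of chains within a column do not depend on the scaling of columns. Il10rb over Il10ra was 3.88, 3.11 and 3.21 with DMSO, 3.65, 3.47 and 3.84 with LPS, and 5.95, 5.70 and 6.20 with LPS + Ska. The LPS + Ska columns lay above all others, 0.70 higher than LPS on the log2 scale. With the 2 recovered values of each treated group in place of its tied columns, a two-sided exact permutation test gave p = 0.333 (adjusted p = 0.375 over 9 comparisons), the smallest that 2 values against 2 allow. Il6st over Il6ra was 1.34, 1.12 and 1.00 with DMSO, 0.686, 0.779 and 0.608 with LPS, and 0.622, 0.663 and 0.573 with LPS + Ska. The columns of both treated groups lay below those of DMSO and overlapped each other. The recovered values did not overlap, at 0.645 to 0.730 with LPS and 0.598 to 0.643 with LPS + Ska. The exact permutation test between them gave p = 0.333 (adjusted p = 0.375), again the smallest possible. Each treated group differed from DMSO at p = 0.2 in the exact permutation test on recovered values (adjusted p = 0.36), the smallest that 2 values against 3 allow. The summed TPM of the 4 chains was 150 ± 2.67 (SD, n = 3) with DMSO, 58.6 ± 2.19 with LPS and 66.7 ± 1.21 with LPS + Ska.

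**Figure D3:**
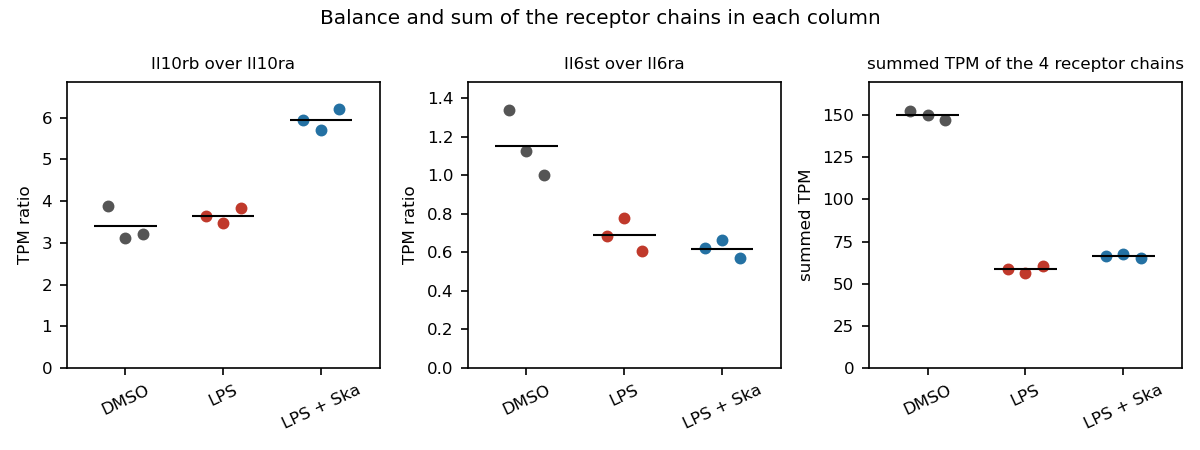
TPM ratio of Il10rb over Il10ra, TPM ratio of Il6st over Il6ra, and summed TPM of the 4 receptor chains (vertical axes) in the 3 columns of each group, with a line at the mean. The first ratio lies between 5.70 and 6.20 with LPS + Ska and at most at 3.88 elsewhere, and the second lies at 1.00 or above with DMSO and at most at 0.779 in treated cells.

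Of 16 further ligands, some from outside the 3 families, 6 were at 0 in every column and 4 were tested. With LPS 2 of the 4 were called higher and none lower by limma (3 and 0 at an unadjusted p under 0.05). Over all genes tested 12.7% were called higher and 20.0% lower. The median log2 difference of the list was 0.88 against -0.07 over all genes. Among the 4, Lif and Cntf passed the filter only through a treated group in which they were high. The count and the median therefore depend in part on the filter. Lif, which signals through gp130, had a mean of 0.315 ± 0.169 TPM (SD, n = 3 columns, as for the means that follow) with DMSO, 4.99 ± 0.273 with LPS and 0.828 ± 0.20 with LPS + Ska. It rose with LPS (2.2, adjusted p = 4.0e-06) and fell with LPS + Ska against LPS (-1.72 ± 0.16 SE, adjusted p = 0.00014), the 32nd lowest difference of 12819. With recovered values the limma adjusted p of this fall was 0.0027. Lif, like Il6, passed the filter only through its level with LPS, with a mean of 0.571 TPM over the other groups. Ebi3, the partner of Il27, rose with LPS from 36.8 ± 2.2 to 73.8 ± 0.0646 TPM (0.99, adjusted p = 1.8e-06) and stood at 65.1 ± 3.08 TPM with LPS + Ska (adjusted p = 0.059). Cntf was called higher with LPS + Ska than with LPS (1.34, adjusted p = 0.036), from 1.24 ± 1.42 to 3.92 ± 0.458 TPM. Its LPS columns were 0.926, 0 and 2.78 TPM. Its recovered values were 0 and 1.85 TPM with LPS, and 3.69 and 4.15 TPM with LPS + Ska. It passed the filter only through its level with LPS + Ska (0.698 TPM over the other groups). The call was lost in 10 of 17 alternatives, among them recovered values and without each of LPS replicates 5 and 6, LPS + Ska replicates 5 and 7 and DMSO replicates 6 and 7.

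Of 19 further receptor chains, 6 were tested. With LPS 3 were called lower and 2 higher, against 20.0% and 12.7% of all genes tested, with a median of -0.40. The lower ones were Il15ra (-1.28, adjusted p = 2.4e-05), which presents IL-15, Il12rb1 (-1.01), a chain for IL-12 and IL-23, and Il11ra1 (-0.80), which binds IL-11. The higher ones were Il7r (0.95), the IL-7 receptor chain, and Il20rb (0.60), a chain of the IL-20 receptors, whose call was lost without DMSO replicate 5, LPS replicate 5 or LPS replicate 6. With LPS + Ska against LPS, Il20rb was called lower (-0.66, adjusted p = 0.025), and none was called higher by limma (1 at an unadjusted p under 0.05). The Il20rb call was lost with recovered values, and without any 1 of LPS replicates 5 and 6 and LPS + Ska replicates 5 and 6. Over all genes tested 6.14% were called lower and 3.35% higher. Il2rg, the common gamma chain that IL-15 uses, was the highest of this list at 96.6 ± 3.27 TPM with DMSO and 96.4 ± 0.293 with LPS.

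In the signalling list of kinases, Stat proteins and their inhibitors, 18 of 22 genes were tested, with a median log2 difference of 0.22 for LPS against DMSO. Stat3, the main effector of IL-6 and IL-10, rose with LPS (0.63, adjusted p = 0.00017), as did Jak2 (0.64), Socs3 (0.70), the feedback inhibitor of gp130, and Socs6 (0.86). Tyk2 (-0.81), a kinase bound to Il10rb, and the Stat inhibitors Pias3 (-0.90) and Pias4 (-0.78) fell. The list's median with LPS + Ska against LPS was -0.23, against -0.10 over all genes. None of the 4 genes for shedding of Il6ra and other membrane proteins was called by limma in any comparison, with 1 at an unadjusted p under 0.05 (Rhbdf2, LPS against DMSO). Adam10 was at 104 ± 13.6 TPM with DMSO and Adam17 at 126 ± 15.9, with log2 differences of -0.00 and 0.06 for LPS against DMSO. Rhbdf1 and Rhbdf2, which carry Adam17 to the surface, had 0.39 and 0.23 in that comparison.

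Of 14 genes that IL-10 or Stat3 induces in macrophages, 11 were tested. With LPS 4 were called higher and 3 lower, against 12.7% and 20.0% of all genes tested. Il1rn, the IL-1 receptor antagonist, rose from 16.2 ± 8.54 to 108 ± 3.12 TPM (2.76, adjusted p = 1.8e-05), and Bcl3, a nuclear IkB protein, rose by 0.96, whereas Zfp36, which degrades cytokine mRNAs, Sbno2, a corepressor, and Hmox1, heme oxygenase, changed by -1.02, -0.85 and -0.76. With LPS + Ska against LPS, Hmox1 was called higher (1.05 ± 0.10 SE, adjusted p = 0.00014), from 118 ± 7.96 to 245 ± 33.9 TPM. Fcgr1 (-0.59, adjusted p = 0.00019), an Fc receptor, and Tnfaip3 (-0.79, adjusted p = 0.035), an inhibitor of NF-kB, were called lower. Over all genes tested 3.35% were called higher and 6.14% lower with LPS + Ska against LPS. The median of the list was 0.15 with LPS and -0.24 with LPS + Ska against LPS. Over all genes these medians were -0.07 and -0.10. The Fcgr1 call was lost with median-ratio scaling and without LPS replicate 7, and with recovered values its limma adjusted p was 0.0034. The Tnfaip3 call was lost in 9 of 18 alternatives, including recovered values and the removal of any 1 of the 6 LPS and LPS + Ska columns.

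**Figure D4:**
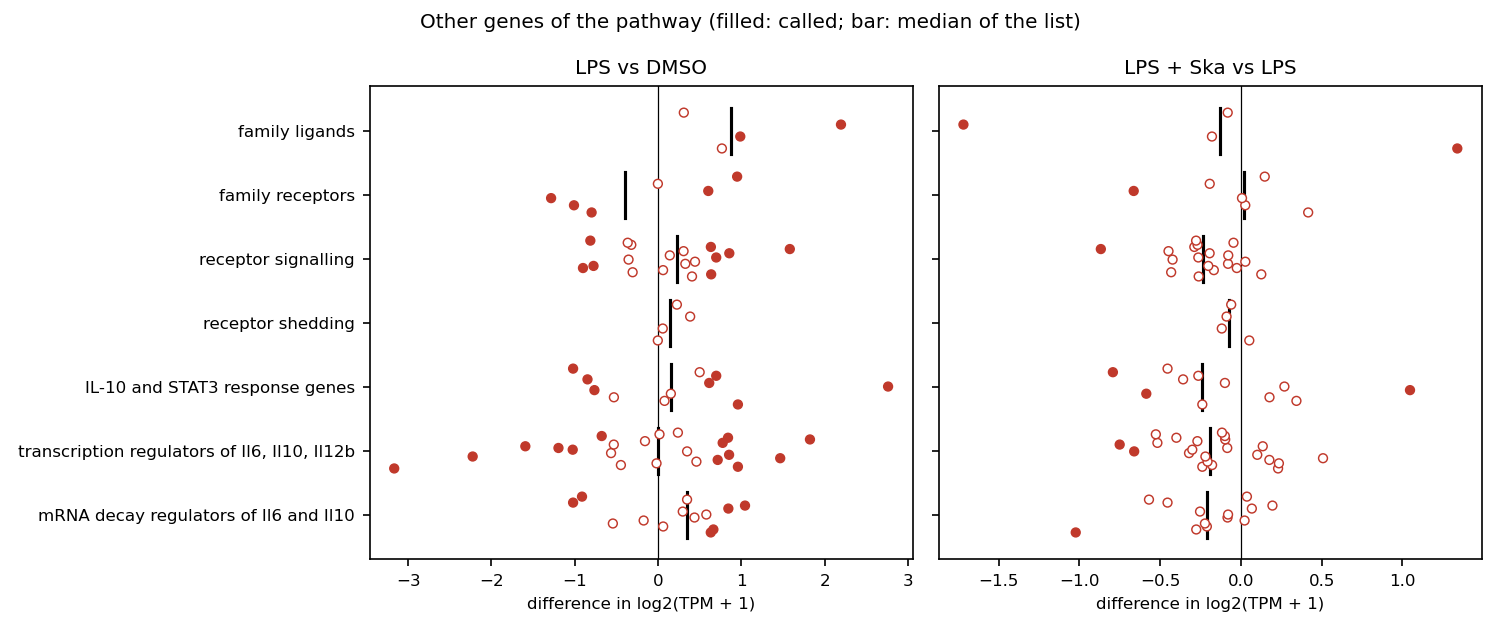
Difference in log2(TPM + 1) (horizontal axis) of each tested gene of the other pathway lists (rows), LPS against DMSO on the left and LPS + Ska against LPS on the right; filled points were called and bars are list medians. Calls in both directions stand in most lists with LPS, and few points are filled on the right, with Lif (-1.72) the lowest.

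Among 25 transcription regulators of Il6, Il10 and Il12b, 22 were tested, and LPS gave 7 higher and 6 lower with a median of -0.00. Over all genes tested 12.7% were called higher and 20.0% lower with LPS. Atf3, a repressor of Il6 and Il12b, fell from 116 ± 30.7 to 11.7 ± 0.0310 TPM (-3.17, adjusted p = 3.8e-07), and the AP-1 genes Fos (-2.23) and Jun (-1.59) and Irf8 (-1.20), an activator of Il12b, fell too. Nfkbiz, an IkB protein needed for Il6 transcription, rose from 12.1 ± 7.41 to 41.0 ± 2.98 TPM (1.82, adjusted p = 0.00054), and Ets2 rose by 1.47. With LPS + Ska against LPS none was called higher by limma (1 at an unadjusted p under 0.05) and 2 were called lower, Junb (-0.75, adjusted p = 0.0012) and Irf4 (-0.66, adjusted p = 0.015). The call on Irf4 was lost with recovered values, and without any 1 of LPS replicates 5 and 6 and LPS + Ska replicates 5 and 7. Over all genes tested 3.35% were called higher and 6.14% lower. At an unadjusted p under 0.05, 9 of the 22 were lower and 1 higher, with a median of -0.19 against -0.10 over all genes. Of the uncalled genes, Nfkb1 (-0.52, adjusted p = 0.0010) and Relb (-0.53, adjusted p = 0.0026) were lower within the fold limit. Nfkbiz stood at 38.3 ± 1.65 TPM with LPS + Ska (-0.10, adjusted p = 0.83). The part of any of these genes in the fall of Il6 was not tested. Of 13 regulators of mRNA decay, all tested, LPS gave 4 higher and 2 lower, against the same 12.7% and 20.0% of all genes tested. Zc3h12c (1.04) and Zc3h12a (0.84), the latter an endonuclease that cuts Il6 mRNA, rose, as did the mRNA stabilizer Elavl1 (0.66), and Arid5a was called higher (0.63, adjusted p = 0.043). Zfp36 (-1.02) and its relative Zfp36l2 (-0.91, adjusted p = 6.4e-07), which promote decay, fell. Arid5a, which protects Il6 mRNA from that cut, was the 1 gene called with LPS + Ska against LPS, from 1.98 ± 0.394 to 0.512 ± 0.485 TPM (-1.02 ± 0.24 SE, adjusted p = 0.012). Arid5a passed the filter only through its level with LPS, with a mean of 0.712 TPM over the other groups. The call against LPS was lost without LPS replicate 5 (adjusted p = 0.052), and the call against DMSO in 9 of 17 alternatives, among them without any 1 of the DMSO columns, LPS replicates 5 and 6 and LPS + Ska replicate 5.

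As a check of the LPS treatment, 8 of 9 tested genes of a list of 10 known responders, such as Nos2, Acod1 and Il1b, were called higher with LPS. Saa3 was not called (0.25, adjusted p = 0.43) and Cd86 was not tested. The list was chosen with earlier results of these data known, so the check is not independent of them. Over all genes tested 12.7% were called higher with LPS, and 6.14% were called lower with LPS + Ska against LPS. With LPS + Ska against LPS 4 were called lower, Il1a (-1.95), Cxcl10 (-1.52), Il1b (-1.41) and Lcn2 (-1.15), while Tnf differed by -0.02 (adjusted p = 0.95, 207 ± 1.97 against 210 ± 1.91 TPM).

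The genes whose patterns were most like those of the members were taken as the highest Pearson correlations of log2(TPM + 1) over the 9 columns, a description only, since the columns of a group share a treatment and those of LPS and LPS + Ska are tied. For Il6 they were Ddx60 (r = 0.997), Hap1 (0.994) and Gm28048 (0.993). For Il10ra they were Hdac5, Sema6b and Atg9b (0.998 to 0.999), and for Il10rb they included Vapb (0.998) and Bcat2 (0.995). Mlec, Glud1 and Fbxo21 were nearest to Il6ra (0.991 to 0.992), and Bin2, Pias3 and Havcr2 to Il6st (0.997 to 0.998). Il10, Il27 and Il15 were nearest to Lxn (0.975), Lage3 (0.959) and Snord34 (0.992), followed by Rpusd3 and Gm24430, by Gm15706 and 9530082P21Rik, and by 2610318N02Rik and Gm22573. With the 2 recovered values a group in place of the tied columns, the nearest gene stayed nearest for Il6, Il10, Il27, Il15, Il10ra and Il10rb, and ranked 3 for Il6ra and 5 for Il6st.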

How the data were processed

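RNA of RAW264.7 cells (DMSO, LPS and LPS + Ska, 3 samples each) was sequenced, and the authors deposited TPM for 55401 Ensembl genes. The submitters' processing notes name fastp 0.20.1, HISAT2 2.2.1, StringTie 2.0 and mm10. Per the labels, the library kit was NEBNext Ultra RNA, and whether counting used strand is not given in the sources used here. Treatment lasted 24 h per the labels and longer by the study's methods, and the skatole dose of these samples is not given in the sources used here. Symbols matched 55141 identifiers, and gene positions are from GENCODE vM21 (GRCm38). TPM keeps no depth, so no counting interval could be given.

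Differences in log2(TPM + 1) were fitted to all 9 columns together in limma 3.58.1 (R 4.3.3), with the prior variance following intensity, and p-values were adjusted over all 12819 genes tested. The members and the lists were chosen with earlier results of these data known. All members are named, and of each list called genes in order of fold, at most 6, with list members that complete a count of 5 or fewer, and uncalled genes set beside a member, named after their values were seen. Alternatives were a pseudocount of 0.1, no filter or a mean of at least 5 TPM, median-ratio scaling, a fit without the uncompared group, a prior with no intensity trend, a replicate block, recovered values, adjusted p alone, and each column left out in turn. Recovered values were replicate 5 plus and minus 0.5 times the gap to replicate 6, or to replicate 7 where replicate 6 was at 0. Those below 0 were set to 0. Ratios were compared on the recovered values with exact permutation tests in scipy 1.17.1, a choice made after the data were seen. Promoters are from RefSeq, and figures were drawn with matplotlib 3.10.9. Some items of the lists are not reported here.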

Additional observations from a re-analysis of the deposited data

How the results depend on the processing

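Over 24 fold changes of the members, 406 of 420 values under the alternatives kept their direction and their side of the thresholds, 7 lost a call (all for Il15 in LPS + Ska against LPS), 4 gained one and 3 changed sign. Because of the ties, leaving out an LPS or LPS + Ska column does not remove an independent sample. Those settings, here and above, cannot test dependence on single samples of the treated groups. Adjusted p alone keeps the estimates of the main fit. The sign changes were in uncalled differences of LPS + Ska against LPS. Il27 ran from -0.13 (without LPS replicate 7) to 0.15 with 1 column left out, and Il6ra ran from -0.050 to 0.079 with 1 column left out, negative in the absence of replicate 6 of either treated group. The count of members called higher with LPS was 1, and was 2 with no filter (Il6 and Il23a), 0 with a mean of at least 5 TPM, where Il6 was no longer tested, and 1 to 2 with 1 column left out (Il10 was added without DMSO replicate 5). For LPS + Ska against LPS, the count called higher was 0, and 1 on adjusted p alone (Il10rb). The count called lower there was 2, and was 0 with a mean of at least 5 TPM, 1 with median-ratio scaling, 1 with recovered values and 1 to 2 with 1 column left out. For LPS + Ska against DMSO, the count called higher was 0, and was 1 with a pseudocount of 0.1 (Il6) and 0 to 1 with 1 column left out (Il10). Causes were not tested beyond these settings. With a replicate block the counts were 1 higher and 4 lower, 0 and 2, and 0 and 5 in the 3 comparisons, as without it. Deviations of same-numbered columns correlated at -0.032 to 0.080 between DMSO and the treated groups and at 0.38, 0.15 and 0.13 between LPS and LPS + Ska, whose columns are tied in the same form, so pairing by number was not assumed. The unknown depth and at most 2 independent values a gene in each treated group limit what can be said of Il12b, Il10, Il27 and Il23a, which lay near or below 1 TPM in most columns.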
